A study of Mus musculus with 2 samples.

Results

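The cells described here are the 123 proliferating cells of a Vsir-/- kidney library in which no T cell transcript was found. They were chosen by 2 readouts, the cluster that the authors named proliferating cells and 0 unique molecular identifiers (UMIs, the counted transcript molecules) summed over Cd3d, Cd3e, Cd3g, Trac, Trbc1, and Trbc2, the genes of the T cell receptor complex. They made up 123 of the 189 proliferating Vsir-/- cells (65.1%, interval 57.8–71.9%), 123 of the 1844 cells of that library (6.67%), and 123 of 7314 cells in all. The other 66 proliferating Vsir-/- cells had at least 1 such UMI. In the WT library, only 4 of 118 proliferating cells (3.39%, interval 0.931–8.45%) had none. Because the authors' cluster was built on the expression of these same cells, the cell cycle genes that set it apart describe the choice and are given without a test.

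Single-cell RNA sequencing was performed in droplets on digested kidneys with nephrotoxic nephritis (NTN), a model in which preimmunized mice receive sheep serum against the glomerulus. Each genotype, Vsir-/- and WT, had 1 library from C57BL/6 mice of 8 weeks, given 200 μg of sheep IgG in Freund's complete adjuvant and, 4 days later, nephrotoxic serum at 2 μL per g according to the sample labels, whereas the study's methods give another dose. Kidneys were digested in 0.2 mg/ml liberase at 37°C for 30 minutes. The labels describe the Vsir-/- library as all kinds of kidney cells and the WT library as CD45+ cells, whereas the study's methods describe a CD45+ sort without naming an exception. The Vsir-/- mouse lacks VISTA, an inhibitory checkpoint of myeloid and T cells, in every tissue. The targeted gene, Vsir, had 8 UMIs in the Vsir-/- library and 4278 in the WT library, and 0 in the 123 cells, which allows a level of up to 0.999 CPM (UMIs per 1000000 UMIs of the same cells). Genotype, the labelled sort, and sex-linked transcripts cannot be told apart between the libraries. Xist, which is transcribed from the inactive X chromosome of females, had 16405 UMIs in the Vsir-/- library and 0 in the WT library, while 4 Y-linked genes (Ddx3y, Uty, Eif2s3y, and Kdm5d) together had 0 and 5175 UMIs. The study's methods state that the mice were male and do not give the number of mice per library. In the 123 cells Xist had 3347 UMIs in 102 cells, and the Y-linked genes had 0. No comparison between genotypes was therefore made beyond the counts given for the WT cells.

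Most cells of an adult kidney are quiescent. After injury, surviving proximal tubule cells, the epithelium that reabsorbs most of the filtrate, can lose transport genes and enter the cycle, and capillary endothelium can divide as well. Dividing cells copy their DNA in S phase with genes such as Pcna and Rrm2, and then make the cyclins, kinesins, and kinetochore proteins of G2 and mitosis. Cells of unrelated lineages use the same genes to divide, so a cluster built on these transcripts can join them.

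The 123 cells held 3002512 UMIs, with between 504 and 145955 per cell (median 15198) and a median of 4363 detected genes. The median was 6673 UMIs over the whole Vsir-/- library, 50 of the 123 cells were as deep as the deepest 10% of its cells (at or above 19262 UMIs), and the cell with the most UMIs of the library was among them. Mitochondrial transcripts made up a median of 4.03% of UMIs (lowest 0.739%, highest 9.97%). Ptprc, which encodes CD45, had a UMI in 17 of the 123 cells (13.8%, interval 8.26–21.2%), against 53 of the 66 proliferating cells with T cell transcripts (80.3%, interval 68.7–89.1%), which had nearly the same median depth (14312 UMIs). In Vsir-/- neutrophils, which carry CD45, the share was 97.5% at a median of only 4097 UMIs. Thus no Ptprc UMI was detected in 106 of the 123 cells, nor in 13 of the 66 proliferating cells with T cell transcripts. T cell genes outside the rule (Cd4, Cd8a, Cd28, Lck, and 6 others) had 15 UMIs over all the cells, and 13 cells had at least 1 of them (10.6%), against 5.06% of neutrophils and 83.3% of proliferating cells with T cell transcripts. Lck led with 7 UMIs and Cd247 followed with 6, while 6 of the 10 genes were at 0.

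Just outside the threshold stood 15 proliferating Vsir-/- cells with exactly 1 T cell UMI. Their median depth was 33849 UMIs, 11 of them had no Ptprc UMI, 9 had at least 5 of 10 endothelial genes, and 5 had at least 8 of 17 proximal tubule genes. The corresponding numbers just inside it, among the 123 cells, were 106, 47, and 68. Of the 41 proliferating cells with 10 or more T cell UMIs, 0 lacked Ptprc and only 2 had at least 5 endothelial genes. A few deep cells with the same lineage genes were therefore left outside by 1 UMI.

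Almost all of the 123 cells carried cell cycle transcripts. A core list of 32 genes of S phase and mitosis was counted in each cell, and a cell was called cycling when at least 3 of them had a UMI. By this count 120 of 123 cells were cycling (97.6%, interval 93.0–99.5%), 118 had at least 5 of the genes, 100 had at least 10, and 74 had at least 20, with a median of 22. Intervals throughout are exact Poisson or Clopper-Pearson intervals at the 95% level and cover counting error only. The background of this count was 1.27% (2 of 158) in neutrophils, which do not divide (median 4097 UMIs). The share was 10.2% in B cells (median 3597) and 13.1% in R1 resident macrophages (median 5921). It was 11.2% (26 of 233) in Vsir-/- cells that also had no T cell transcript but lay in a CD4+ T cell cluster, the one named non–EM-like by the authors (median 9616). Outside the proliferating cluster, the share was highest in NK cells (25.4%, 17 of 67, median 5472) and plasmacytoid dendritic cells (22.1%, 19 of 86, median 13777). At least 10 core genes were found in 10 of the NK cells, 12 of the plasmacytoid dendritic cells, and 14 of 237 R1 macrophages. The shares of these 3 groups are therefore no background rate. The proliferating cells with T cell transcripts all passed (66 of 66). When every cell was thinned to 1000 randomly drawn UMIs, which left out 6 of the 123 cells, 81 of 117 cells still passed (69.2%, interval 60.0–77.4%), against 0.654% of neutrophils, 0.893% of the CD4+ cluster cells, 8.02% of R1 macrophages, 9.30% of plasmacytoid dendritic cells, 11.9% of NK cells, and 89.4% of proliferating cells with T cell transcripts. At 2000 UMIs, 97 of 109 passed (89.0%, interval 81.6–94.2%), with 0.662% of neutrophils and 1.45% of the CD4+ cluster cells. R1 macrophages were then at 10.2%, plasmacytoid dendritic cells at 11.8%, and NK cells at 13.8%. The share of cells called cycling thus fell with depth. Since the cluster that selected these cells rests on the same transcripts, its distance from the other clusters describes the choice and is no separate evidence of division.

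**Figure D1:**
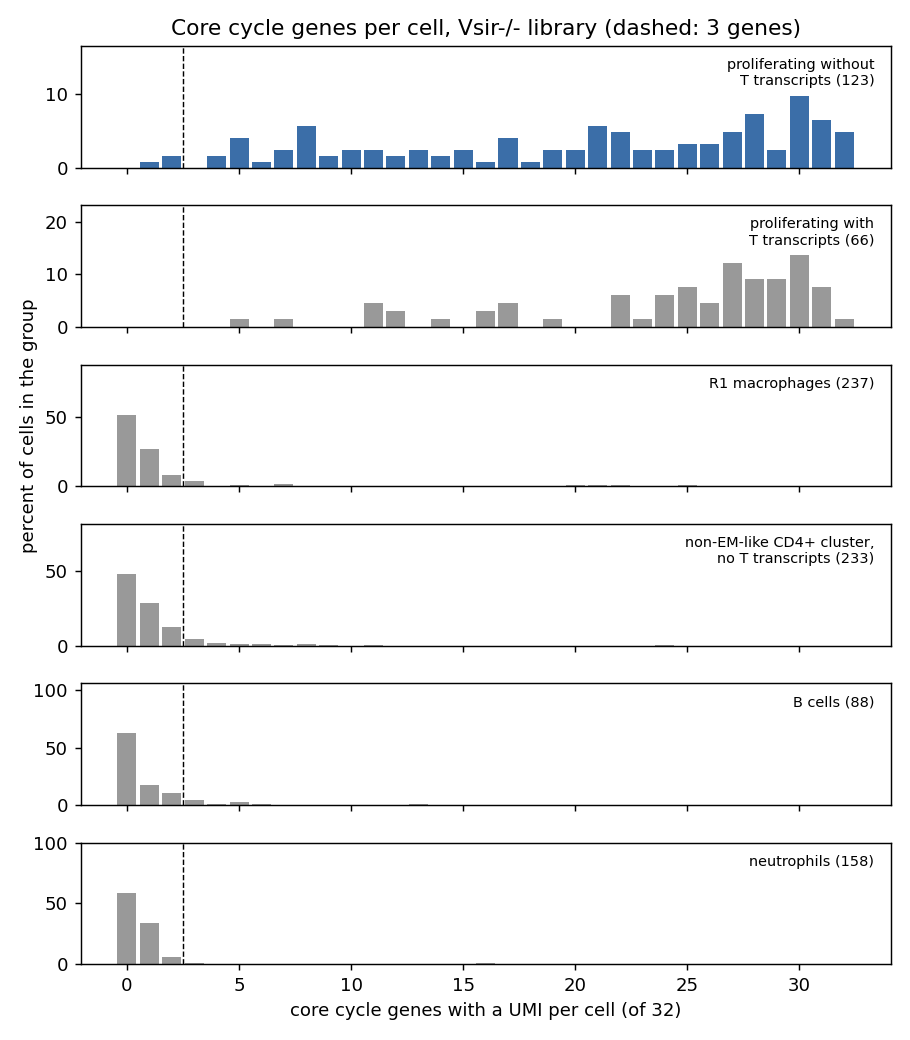
Percent of cells (y axis) by the number of 32 core cycle genes with at least 1 UMI (x axis) in 6 groups of Vsir-/- cells, with the dashed line just below 3 genes. The 123 cells without T cell transcripts spread from 1 to 32 genes and 120 lie to the right of the line, whereas all but 2 of the 158 neutrophils lie to its left.

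Only 3 cells had fewer than 3 core genes. The shallowest had 835 UMIs, 2 core genes, and 4 of the 54 genes of a G2/M list. The other 2 were deep, at 10226 and 14291 UMIs, with 2 and 1 core genes, but they had transcripts of 30 and 25 of the 43 genes of an S phase list and of 10 G2/M genes each. Their low counts of core genes, most of which belong to mitosis, were thus found beside many S phase genes.

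The markers that define the cluster were found in most of the cells. Mki67, a nuclear protein of all dividing cells, had 2114 UMIs (704 CPM) in 107 cells. Top2a, which untangles replicated DNA, had 1347 UMIs (449 CPM) in 93 cells. Stmn1 and Tubb5, both of the microtubule system, had 1180 and 851 CPM and were found in 114 and 104 cells. Of the core list, the genes found in most cells after Mki67 were the chromosomal passenger genes Birc5 (106 cells) and Cdca8 (100 cells), the kinetochore genes Cenpf (97 cells) and Spc25 (91), Top2a, the spindle genes Hmmr (92), Prc1 (91), and Tpx2 (88), and Cdca3 (91). Ube2c was found in as many cells as Tpx2. The kinase Ttk (41 cells) and the histone chaperone Asf1b (45 cells) were found in the fewest. No core gene depended on a few cells, since the cell with the most UMIs of a gene held at most 10.2% of them.

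Promoters of several core genes are shown because many mitotic genes share 2 short elements upstream of their start, the cell cycle genes homology region (CHR) and the CCAAT box. The windows are the 150 bases before the annotated start (RefSeq, GRCm38.p6), written 5′ to 3′ on the strand of the gene, at chr7:135716380-135716529 (minus strand) for Mki67, chr11:99024190-99024339 (minus) for Top2a, chr10:69352913-69353062 (minus) for Cdk1, the kinase of mitotic entry, and chr2:164769779-164769928 (plus) for Ube2c, which marks mitotic cyclins for destruction. Capitals mark CHR letters (TTTGAA or its reverse complement TTCAAA, and TTCGAA, which is its own) and CCAAT letters (or ATTGG), so that both strands were searched.
Mki67: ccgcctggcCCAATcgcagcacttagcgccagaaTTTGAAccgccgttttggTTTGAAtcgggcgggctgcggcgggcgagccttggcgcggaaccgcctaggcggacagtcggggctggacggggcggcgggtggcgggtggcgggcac
Top2a: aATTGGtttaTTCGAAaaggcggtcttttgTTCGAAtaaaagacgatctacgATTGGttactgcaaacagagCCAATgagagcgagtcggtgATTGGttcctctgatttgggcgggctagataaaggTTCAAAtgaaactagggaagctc
Cdk1: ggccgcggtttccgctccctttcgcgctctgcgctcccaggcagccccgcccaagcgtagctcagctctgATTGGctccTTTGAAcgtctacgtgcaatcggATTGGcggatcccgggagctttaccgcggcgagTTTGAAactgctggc
Ube2c: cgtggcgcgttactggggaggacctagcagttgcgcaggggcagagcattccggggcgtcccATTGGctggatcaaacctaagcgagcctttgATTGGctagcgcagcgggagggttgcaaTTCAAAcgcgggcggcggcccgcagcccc
In the 300 bases from 250 before to 50 after the start, CHR letters were found in 19 of the 27 core genes matched by symbol (70.4%) and in 19.4% of 27025 promoters. CCAAT letters were found in 22 of 27 (81.5%) and 37.9%. Both were found in 18 of the 27 and in 7.70% of all promoters. The genes Ccna2, Tpx2, Aurkb, Kif20a, and Esco2 were not matched by symbol to a promoter and were left out. These are matches of letters only and say nothing of which factor was bound.

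Which lineages the 123 cells belonged to was examined by clustering them again on their own. The 108 genes of the core cycle, S phase, and G2/M lists were left out. Genes outside these lists were kept, whether or not they follow the cycle. A sub-cluster was named only when at least 3 genes of a lineage list had a UMI in at least 50% of its cells and at least 4 times the level of the other cells. Of 8 sub-clusters, 55 cells were proximal tubule-like (44.7%, interval 35.7–53.9%), 44 endothelium-like (35.8%, interval 27.3–44.9%), 5 principal cell-like, after the principal cells of the collecting duct (4.07%), and 2 mesenchyme-like (1.63%). The other 17 cells (13.8%, interval 8.26–21.2%), in 4 sub-clusters of 9, 5, 2, and 1 cells, were given no name. Tubule-like cells thus numbered 60 of 123 (48.8%, interval 39.7–58.0%). Among the 76 cells with at most 5% mitochondrial UMIs the order of these lineages turned, with 28.9% tubule-like (interval 19.1–40.5%) and 53.9% endothelium-like cells (interval 42.1–65.5%). No sub-cluster was macrophage-, monocyte-, or neutrophil-like.

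**Figure D2:**
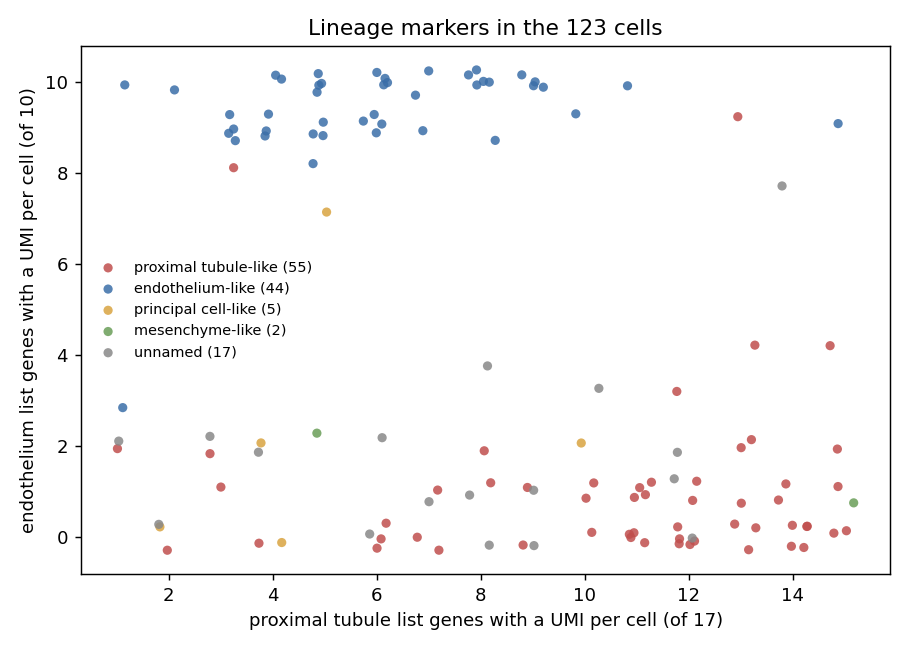
Number of the 17 proximal tubule genes (x axis) and of the 10 endothelial genes (y axis) with a UMI in each of the 123 cells, colored by sub-cluster name, with points shifted slightly at random so that they do not cover each other. Endothelium-like cells have 3 to 10 endothelial genes, and 50 of the 55 proximal tubule-like cells have at most 2.

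The proximal tubule-like cells had a median of 12324 UMIs and of 12 of the 17 proximal tubule genes. Some of the 55 went against the name. A cell of 3175 UMIs had 3 proximal tubule and 8 endothelial genes (945 and 4724 CPM), and a cell of 65477 UMIs had 13 and 9. Cells of 1159 and 5734 UMIs had only 1 and 2 proximal tubule genes. The deepest of the 55, of 74229 UMIs, had 13 proximal tubule genes but only 1374 CPM of the list, less than its background in neutrophils given below. Over all 55 cells the list had 10079 UMIs (10673 CPM, interval 10466–10884), against 717 CPM in the endothelium-like cells. Its background in Vsir-/- cells that should lack these genes was 1641 CPM in neutrophils and 1092 CPM in R1 macrophages, where a median of 3 list genes was found per cell. Among its abundant genes were Miox, which degrades myo-inositol (1790 CPM, in 53 of 55 cells), and the phosphate transporter Slc34a1 (1484 CPM, in 50 cells). The genes that led this sub-cluster over the other 68 cells were Kap, an androgen-regulated kidney protein (2198 against 31.1 CPM, in 29 of 55 cells, with 107 CPM in neutrophils and a UMI in 44.9% of them), the organic cation transporter Slc22a2 (74.1 against 0.972 CPM), 1700016C15Rik, Gm19950, and the glucuronosyltransferase Ugt2b38 (61.4 against 0.972 CPM). Mitochondrial transcripts made up a median of 6.12% of UMIs, against 2.97% in the endothelium-like cells. In 54 of the 55 cells at least 3 core cycle genes were found, with a median of 17, and in 39 at least 10.

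In the endothelium-like cells all 10 endothelial genes were found in the median cell, at 11490 CPM in sum (interval 11321–11661), against 120 CPM in the proximal tubule-like cells and 373 CPM in neutrophils. Some of the 44 went against the name. A cell of 58581 UMIs also had 15 of the 17 proximal tubule genes (4490 CPM), and a cell of 10390 UMIs had 10 (2502 CPM). A cell of 1709 UMIs had only 3 endothelial genes. The sialomucin Emcn was found in 44 of 44 cells (2973 CPM), the junction protein Pecam1 in 43 (708 CPM), and Ehd3, which is known from glomerular capillaries, in 41 (1683 CPM). Gata5, a transcription factor also known from glomerular endothelium, was found in 27 of the 44 cells (80.3 CPM) and in 0 of the proximal tubule-like cells. Plvap, which forms the diaphragms of fenestrated capillaries outside the glomerulus, had 242 CPM in 26 cells. The leading genes were the guanine nucleotide exchange factor Rasgrp3 (315 CPM), the imprinted gene Mest (199 CPM), the homeobox gene Hlx (192 CPM), and Hecw2 (174 CPM), each with 0 UMIs in the other 79 cells, and Ctla2a (766 CPM against 1.36 CPM). Itga8, an integrin known from mesangial cells, had 224 UMIs in 16 of the 44 cells. These cells were the deepest of the large sub-clusters, with a median of 20531 UMIs, and a median of 27 core cycle genes was found in them. At least 10 were found in 42 of the 44 cells. Podocyte genes reached 800 CPM here, with 903 of the 1225 UMIs from Podxl, which endothelium also expresses. At least 3 of the 6 podocyte genes were found in 23 of the 44 cells. The mesenchyme list had 336 CPM, and at least 3 of its 9 genes were found in 15 cells. Whether droplets with 2 cells were among them was not tested.

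At equal depth the 2 large sub-clusters had similar counts of cycle genes. Thinned to 2000 UMIs, the median cell had 7 core genes among 45 proximal tubule-like cells and 8 among 43 endothelium-like cells, and 93.3% (interval 81.7–98.6%) and 81.4% (interval 66.6–91.6%) had at least 3. The intervals overlap. The larger number in endothelium-like cells before thinning was thus found beside their greater depth.

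The 5 principal cell-like cells were led by the cytokine gene Il1f6, the water channel Aqp2 (3696 CPM, in 5 of 5 cells), Fxyd4, a subunit that regulates the sodium pump (3486 CPM), Mal2, and the tight junction gene Cldn8 (379 CPM). The principal cell list reached 9970 CPM (interval 9467–10493), against 72.0 CPM in the proximal tubule-like and 47.7 CPM in the endothelium-like cells. These values rest on a few cells, as 1 cell held 90.8% of the Aqp2 UMIs of all 123 cells. The principal cell list had 39536 CPM in a cell of 34728 UMIs, but 2734 CPM in a cell of 27069 UMIs and 260 CPM in a cell of 84746 UMIs. In the latter cells the injured tubule list was high, at 52126 and 24721 CPM, against 5788 CPM in the first, so that these cells were unlike each other. The other 2 cells had 504 and 696 UMIs. Over all 5 cells the injured tubule list had 25125 CPM, mainly from the matrix protein gene Spp1 (16481 CPM). Genes of other distal segments were found as well. Over all 123 cells the thick ascending limb list had 335 CPM and the distal convoluted tubule list 52.6 CPM. In the 5 principal cell-like cells these lists had 1239 and 616 CPM, with 83 UMIs of Slc12a3. Between 4 and 30 core genes were found in these cells. The 2 mesenchyme-like cells were led by the collagen gene Col3a1 (676 UMIs, 15807 CPM), the microfibril genes Mfap4 and Mfap5, Cilp, and Sfrp4, and had 17 and 21 core genes at 27494 and 15272 UMIs. Col1a1 had 121 and 161 UMIs in these cells, in the same order. The deeper of them also had 15 of the 17 proximal tubule genes with 260 UMIs, and 9.83% mitochondrial UMIs.

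**Figure D3:**
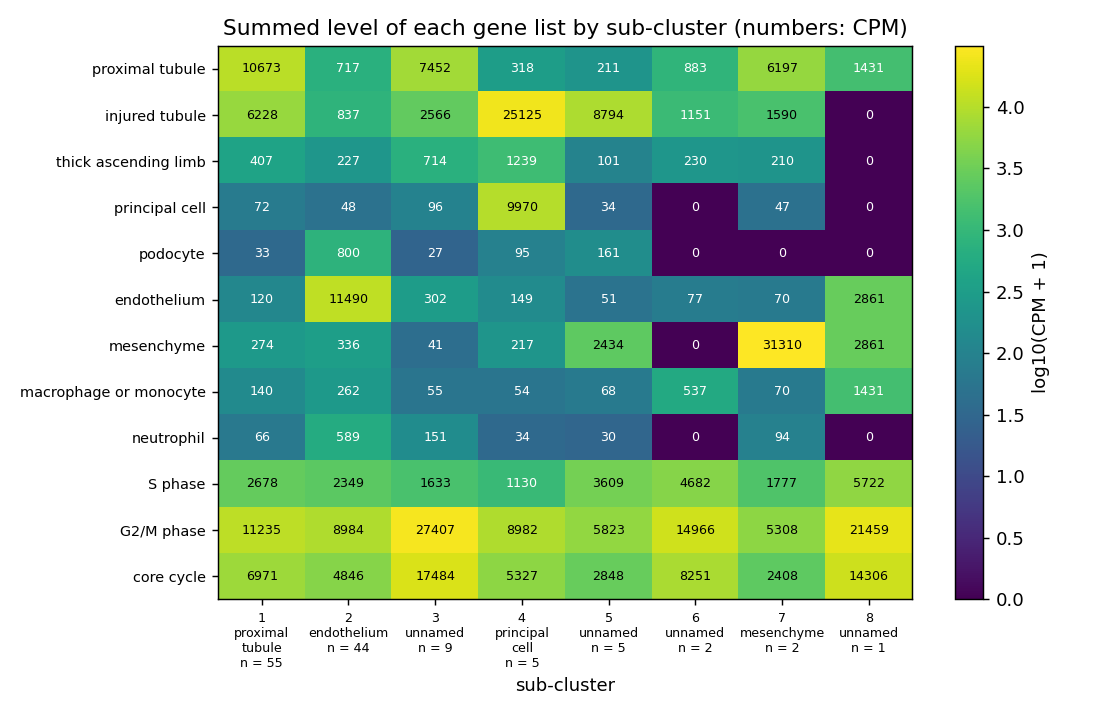
Summed level of 12 gene lists (rows) in the 8 sub-clusters (columns), with the CPM printed in each cell and its log10 as color. The proximal tubule list is highest in sub-cluster 1 (10673 CPM), the endothelium list in 2 (11490 CPM), the principal cell list in 4 (9970 CPM), and the mesenchyme list in 7 (31310 CPM), while the core cycle list is present in all 8.

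The unnamed cells were of several kinds. The largest unnamed sub-cluster, of 9 cells, had the most mitotic transcripts, with a core cycle level of 17484 CPM, between 14 and 28 core genes per cell, and Mki67 (3170 CPM) and Top2a (2429 CPM) in all 9 cells. Its leading genes were the antisense RNA Tsix (851 against 22.5 CPM), Gm42047, Bnc2, Snhg11, and Ankle1. The noncoding RNA Malat1, which stays in the nucleus, had 172181 CPM there against 22536 CPM over all 123 cells, and the median mitochondrial share was 1.83%, with a range from 1.23% to 9.91% among the 9 cells. A proximal tubule list level of 7452 CPM and a median of 10 list genes were found in these cells, so that tubule-like cells would number 69 of 123 (56.1%) with them. They had a median of 6709 UMIs. When S phase and G2/M genes were counted at 2000 UMIs, all 9 cells had more G2/M genes, with a median of 23 against 3.

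The 5 cells of another unnamed sub-cluster were led by the homeobox gene Hoxd11 (148 CPM, in 4 of 5 cells), the retinoic acid enzyme Aldh1a2 (283 CPM, in 5 of 5 cells), Ankrd1 (655 CPM, in 4 cells), Clec18a (in 3 cells), and Dkk3 (165 CPM, in 5 of 5 cells). Wnt16, Foxd1, and Wt1 reached 161, 161, and 101 CPM, and the renal epithelial factor Pax8 and the tight junction gene Cldn1 169 and 300 CPM, in 4 or 5 of the 5 cells. Neither the proximal tubule list (211 CPM) nor the endothelium list (50.7 CPM) was abundant. The mesenchyme list reached 2434 CPM, mostly from Tagln (395 of 576 UMIs), with at least 3 of its 9 genes in 5 of 5 cells, and the injured tubule list 8794 CPM, mostly from Spp1. The cells differed in this, as the cells of 14291 and 14385 UMIs had 210 and 278 CPM of the injured tubule list and 10566 and 5561 CPM of the mesenchyme list, whereas the other 3 had 6543 to 11373 CPM and 1052 to 1864 CPM. The deepest cell of the library, with 145955 UMIs, belonged to this group and held 1291 of its 1638 Spp1 UMIs, 245 Vcam1 UMIs, and all 32 core cycle genes. The remaining unnamed cell had only 699 UMIs and 6 core genes.

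Another unnamed sub-cluster held 2 cells led by leukocyte genes. The first, with 9901 UMIs, had 105 UMIs of the granzyme gene Gzma, 63 of Nkg7, 116 of Ccl5, 100 of Ccl4, 6 of 8 NK cell genes, 11 of Ptprc, and 31 core cycle genes. The second, with 16158 UMIs, had 45 UMIs of the chemokine receptor gene Ccr7, 380 of Cd74, 298 of H2-Aa, 4 of Flt3, 4 of 8 dendritic cell genes, 8 of Ptprc, and 24 core cycle genes. Each cell alone cannot define a group, and both are described by their genes.

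Myeloid transcripts were few in the other cells. The macrophage and monocyte list of 12 genes had 580 UMIs over the 123 cells (193 CPM, interval 178–210), against 21117 CPM in R1 macrophages, and Lyz2 was the most abundant of its genes (140 UMIs). At least 3 of the genes were found in 22 cells. An endothelium-like cell of 89521 UMIs held 201 of these UMIs from 10 of the 12 genes, with 3 Ptprc UMIs and 31 core cycle genes, and a proximal tubule-like cell of 46738 UMIs held 78 from 8 genes. The neutrophil list had 991 UMIs (330 CPM), of which 82.9% (822 UMIs) came from 1 endothelium-like cell of 93982 UMIs. S100a9 and S100a8 led it, with 463 and 453 UMIs. Both cells with the most leukocyte transcripts were thus among the deepest, and a droplet with 2 cells and a single cell cannot be told apart from these counts. The B cell list (153 CPM) was almost entirely Ebf1 (98.5%), a gene that stromal and endothelial cells also transcribe, while Cd79a had 2 UMIs and 5 of its 8 genes had 0.

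Over the lists for other lineages, the thick ascending limb had 335 CPM with Umod, the uromodulin gene, in 104 cells. This list was also found in 41 of 44 endothelium-like cells (227 CPM), so its transcripts alone do not name a cell's lineage. The distal convoluted tubule had 52.6 CPM, with 70.3% of the UMIs of its main gene Slc12a3 in 1 of the principal cell-like cells. The intercalated cell list had 24.0 CPM, the erythroid list 4.66 CPM, and the urothelium 3 UMIs, with 2 of its 5 genes at 0. Basophil and mast cell genes had 15 UMIs in sum, platelet genes 53, and the list for group 2 innate lymphoid cells 374 (125 CPM), of which 61.0% were Gata3, with 4 of its 7 genes at 0. Of the 228 Gata3 UMIs, 205 lay in endothelium-like and 21 in principal cell-like cells.

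The phases were then compared over the lists for S phase and G2/M. Pcna, the DNA clamp of replication, was the most abundant S phase gene (642 UMIs, in 90 cells), ahead of Usp1 (466 UMIs) and Rrm2 (388 UMIs), and Hmgb2 (3330 UMIs, in 114 cells) and Tubb4b (1787 UMIs) stood beside Mki67 at the top of the G2/M list. At 2000 UMIs per cell, 91 of 109 cells had more G2/M than S phase genes, 13 had more S phase genes, and 5 had equal numbers, with medians of 13 and 4. The lists have 54 and 43 genes, so these counts do not give the share of cells in each phase. The proliferating cells with T cell transcripts had medians of 17 and 6, and the CD4+ cluster cells without T cell transcripts 2 and 1. Among the 2 large sub-clusters, 7 of 45 proximal tubule-like and 4 of 43 endothelium-like cells had more S phase genes.

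**Figure D4:**
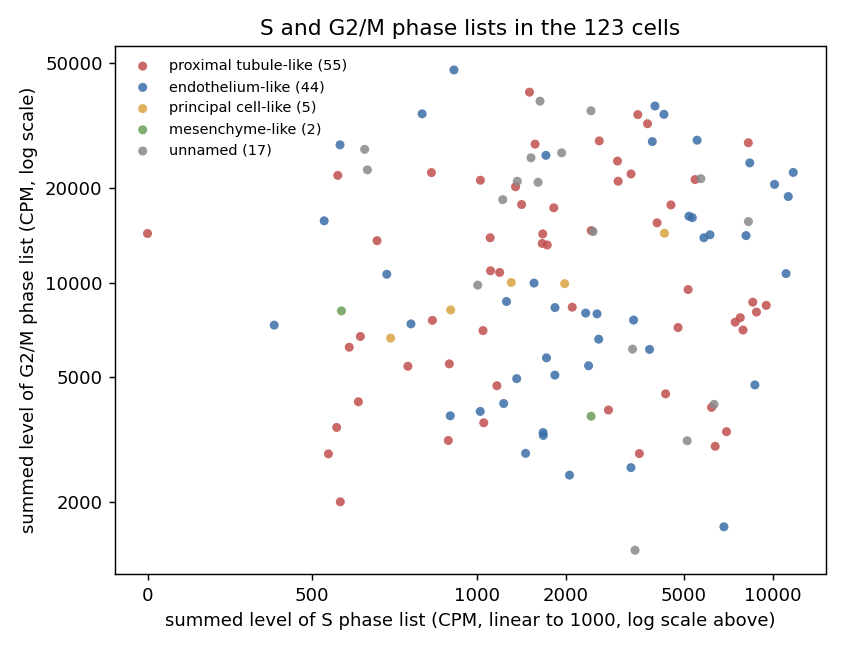
Summed level of the S phase list (x axis, CPM, linear up to 1000 and log scale above) and of the G2/M list (y axis, CPM, log scale) in each of the 123 cells, colored by sub-cluster name. Cells range from 0 to 11733 CPM for S phase and from 1399 to 47686 CPM for G2/M, and proximal tubule-like and endothelium-like cells overlap over most of both ranges.

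The same T cell rule gave 233 Vsir-/- cells in the CD4+ cluster named non–EM-like, which were used to show how the 123 cells differ from cells that are also without T cell transcripts but were not placed among proliferating cells. Of 12384 genes with at least 20 UMIs over both groups, 10.3% were at least 2-fold higher and 8.67% at least 2-fold lower in the 123 cells (0.5 UMIs added to each sum), and the median log2 ratio of all genes was 0.07. With 1 library per genotype, and since cells do not stand for replicates, no test was made. All 32 core cycle genes were at least 2-fold higher, with a median log2 ratio of 5.67, as were 36 of 43 S phase genes (median 2.15) and 52 of 54 G2/M genes (median 5.24). Because the rule picked cells from a cluster of proliferating cells, nothing is read from this difference. The 8 genes with the largest ratios among those with at least 100 UMIs were 7 cycle genes, namely Ccna2, Esco2, Pimreg, Iqgap3, Aspm, Prc1, and Mxd3, and the matrix gene Mfap5. Ccna2 had 368 and 0 UMIs, and Prc1 1046 and 7. Mfap5 had 109 and 0 UMIs, of which 108 lay in the 2 mesenchyme-like cells.

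Other lineages were more abundant among the 233 cells. All 8 principal cell genes and all 8 intercalated cell genes were at least 2-fold lower in the 123 cells (medians −2.25 and −4.52), as were 5 of the 7 thick ascending limb genes that passed the filter (median −1.74) and 6 of 16 proximal tubule genes (median −0.85). Injured tubule genes went both ways, with 3 of the 8 that passed at least 2-fold higher and 3 lower (median 0.25). In contrast, 6 of 10 endothelial genes were at least 2-fold higher (median 1.12) and 0 lower, and 5 of 9 mesenchymal genes were (median 1.79). The latter rest on a few cells, as the 2 mesenchyme-like cells held 676 of the 680 Col3a1 UMIs and 282 of the 312 Col1a1 UMIs, and 5 unnamed cells 395 of the 656 Tagln UMIs. Of the myeloid genes that passed, 4 of 7 macrophage and monocyte genes (median 1.60) and 4 of 4 neutrophil genes (median 1.87) were also at least 2-fold higher and 0 lower, led by S100a8 (151 against 22.5 CPM). Most neutrophil UMIs lay in the endothelium-like cell of 93982 UMIs, as given above. For the macrophage genes, 1 cell held 59.0% of the C1qa and 50.5% of the C1qb UMIs, and the cell of 46738 UMIs held 24 of the 105 and 27 of the 99 UMIs, while the 233 cells had 24 and 27 UMIs. Among the 8 smallest ratios were the follistatin gene Fst (0 and 2381 UMIs), Lypd2 (1 and 730 UMIs), the urea transporter Slc14a2 (8 and 2408 UMIs), the chemokine gene Ccl21a (0 and 141 UMIs), Sptssb (0 and 120 UMIs), Slc34a2 (1 and 172 UMIs), Corin (1 and 123 UMIs), and the intercalated cell channel Aqp6 (3 and 262 UMIs). Slc14a2 belongs to the inner medulla, and it also led a sub-cluster of 64 of the 233 cells when these were clustered in the same way, together with Lypd2. The 123 cells thus held few transcripts of the medullary and collecting duct cells that the 233 cells held, apart from some of the principal cell-like cells.

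To compare within a lineage, the 55 proximal tubule-like cells were set beside 77 proximal tubule-like cells found among the 233 cells (2 sub-clusters of 65 and 12 cells), of which 12 had at least 3 core cycle genes. This comparison was chosen after the data were seen. Of 8736 genes with at least 20 UMIs, 12.6% were at least 2-fold higher and 5.69% at least 2-fold lower in the proliferating cells, with a median log2 ratio of 0.14. The proximal tubule list had 10673 CPM in the proliferating cells and 23248 CPM (interval 22944–23554) in the others. Of its 15 genes that passed the filter, 9 were at least 2-fold lower and 0 higher (median −1.12, or −1.94 with at most 5% mitochondrial UMIs), and all 15 ratios were below 0. Napsa had 330 and 2323 CPM, the fatty acid transporter Slc27a2 330 and 1110 CPM, the megalin gene Lrp2 615 and 1337 CPM, and the glucose transporter Slc5a2 162 and 301 CPM. Other genes with the smallest ratios were Ugt2b37 (8.47 and 122 CPM), Serpina1f (19.1 and 133 CPM), Serpina1a (16.9 and 106 CPM), the gluconeogenic enzyme gene G6pc (75.2 and 381 CPM), Mpv17l (72.0 and 359 CPM), Aadat (106 and 505 CPM), and Col27a1 (21.2 and 98.7 CPM). Several of these rest on the smaller sub-cluster of the comparison cells, whose 12 cells held 126 of the 128 Serpina1f UMIs and 438 of the 486 Aadat UMIs.

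Of 7 injured tubule genes that passed, 3 were at least 2-fold higher in the proliferating cells and 0 lower (median 0.92). The adhesion gene Vcam1 had 164 and 13.5 CPM, the cell cycle inhibitor Cdkn1a 87.9 and 12.5 CPM, and the keratin gene Krt8 354 and 107 CPM. Vcam1 was found in only 9 of the 55 cells. Of its UMIs, 1 cell of 30350 UMIs held 49.0% and the cell of 74229 UMIs 29.7%. Cdkn1a was found in 21 cells and Krt8 in 38, with at most 18.1% and 13.5% of the UMIs in 1 cell. Spp1, the most abundant gene of the list, had 5516 and 4384 CPM. Havcr1, which encodes kidney injury molecule-1, had 1 UMI in the 55 cells and 0 in the 77. Genes of the response to dissociation moved with these differences, as 7 of 10 were at least 2-fold higher and 0 lower (median 2.09). This median was 3.50 with at most 5% mitochondrial UMIs and 1.44 without the 10% of the library's cells with the most UMIs. Atf3 had 140 and 14.6 CPM, Egr1 356 and 45.7 CPM, and Fos 804 and 203 CPM. In the proliferating cells, the cell of 74229 UMIs held 34.1% of the Atf3 and 45.8% of the Egr1 UMIs. Its proximal tubule level was only 1374 CPM. A cell of 19380 UMIs held 27.5% of the Fos UMIs. The most abundant gene, Jun, had 1927 and 1048 CPM. The part of this response in the other differences was not tested. The 13 genes of mitochondrial DNA had a median of −0.25, with none past 2-fold. Outside the tubule, the smooth muscle genes Tagln (186 and 2.08 CPM) and Acta2 (74.1 and 5.20 CPM) and 3 of 4 macrophage genes that passed the filter were at least 2-fold higher in the proliferating cells, with 39.2 and 5.20 CPM for C1qb. These values came from a few cells. Of the 259 mesenchymal UMIs of the 55 cells, a cell of 63132 UMIs held 166 and a cell of 5734 UMIs, with only 2 proximal tubule genes, held 81, and 78 of the 132 macrophage UMIs lay in the cell of 46738 UMIs.

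**Figure D5:**
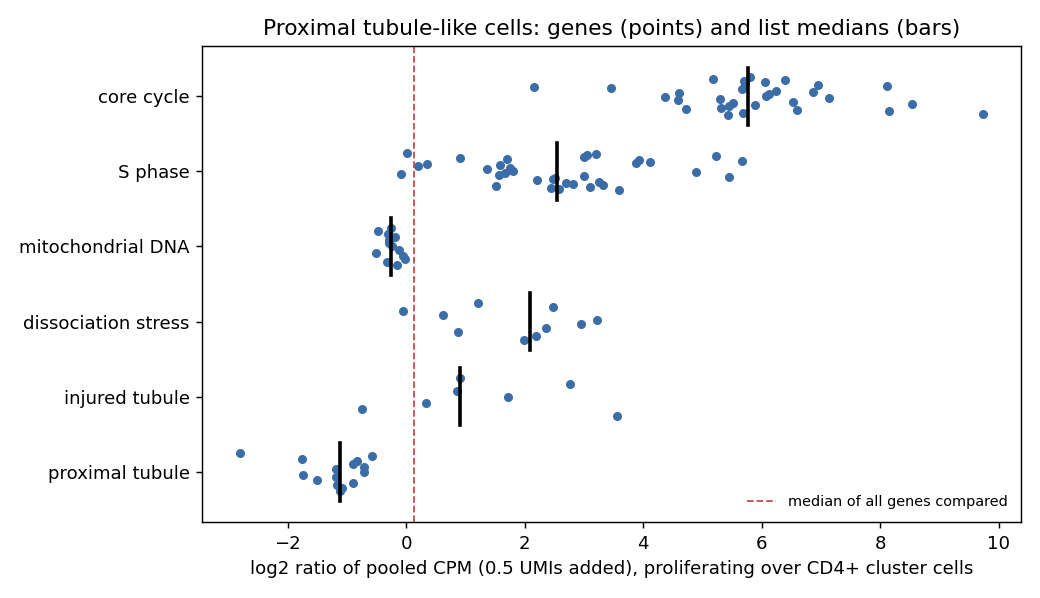
Log2 ratio of pooled CPM (x axis, 0.5 UMIs added) of 55 proximal tubule-like proliferating cells over 77 proximal tubule-like cells from the CD4+ cluster, for the genes of 6 lists (points), with list medians (bars) and the median of all 8736 genes (dashed). All proximal tubule genes lie below 0 (median −1.12). The median of the dissociation stress genes (2.09) lies to the right of that of the injured tubule genes (0.92), while the genes of both lists overlap.

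Endothelial cells outside the proliferating cluster could not be matched as closely, since 3 of the sub-clusters of the 233 cells held endothelial genes without meeting the rule for a name. In the 29 cells of the first, led by Rgcc and Plvap (median 1605 UMIs), Plvap had 1489 CPM and Ehd3 436 CPM. In the 16 cells of the second, led by Slc14a1 and Egfl8, the values were 104 and 332 CPM. In the 15 deep cells of the third (median 48691 UMIs), led by Col6a3 and Itga8, they were 384 and 2676 CPM, and Itga8 had 432 CPM. The endothelium-like proliferating cells, at 242 CPM of Plvap, 1683 CPM of Ehd3, and 146 CPM of Itga8, lay between these groups. Gata5 had 80.3 CPM in the proliferating cells, against 10.1, 13.8, and 120 CPM in the same order.

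Finally, the 4 WT proliferating cells without T cell transcripts had almost none of the kidney genes above. They had 664, 725, 3841, and 27568 UMIs, 7, 6, 26, and 27 core cycle genes, and 0 UMIs of the proximal tubule list, with 0 endothelial genes in each. The principal cell, intercalated cell, podocyte, and mesenchyme lists were also at 0, the thick ascending limb list had 2 UMIs (of Egf), and the injured tubule list had 1 (of Cdkn1a). Over the 4 cells the B and plasma cell list had 746 UMIs, 574 of them from the immunoglobulin joining chain gene Jchain, with at least 3 list genes in 1 cell. The cell of 3841 UMIs had 86 Gzma UMIs and 6 of 8 NK cell genes, and the cell of 27568 UMIs had 58 Cd74 UMIs. Over all 118 WT proliferating cells, the proximal tubule list had 56.7 CPM and the endothelium list 58.2 CPM. Since the libraries differ in their labelled sort, this difference cannot be told apart from it. The libraries shared 5 cell barcodes, of which 0 belonged to the 123 cells.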

How the data were processed

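The authors aligned and counted reads with Cell Ranger (version 3.1.0), filtered genes and cells, merged the libraries in Seurat (version 3.2.3, R version 4.0.3), and named the clusters. The deposited values are raw counts of UMIs for each gene in each cell, with at least 501 UMIs and, by the deposited percent values, at most 10% mitochondrial UMIs per cell. The submitters' processing notes list the build mm9 without a role. The annotation is not given in the sources used here.

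Members and gene lists were chosen with earlier results of these data known. UMIs were pooled over cells and divided by their total (CPM). Sums of 0 allow up to 3 counts. Cells were thinned without replacement (seed 17). Sub-clusters came from ln(1 + UMIs per 10000) of the 1500 most variable genes with at least 10 UMIs, 10 principal components, and Ward linkage into 8 groups, without 108 cycle genes. A name was withheld where another list that met the rule had a gene among the 10 leading genes or a list ratio within 1 (log2), or for a lone cell. The same held where the median depth was under 1/3 of the library's and no gene of the list was among the leading 10. This naming rule was set after the data were seen. Genes named are the markers, T cell genes, Ptprc, and Vsir, the 5 leading genes per sub-cluster, the 3 most abundant genes per list, the 10 core genes found in most cells, and the 8 largest and 8 smallest ratios among genes with at least 100 UMIs. Others were chosen after their values were seen. A gene that the rule names is not reported here. With scrublet (scanpy 1.11.5), 6 of 1844 Vsir-/- cells and 0 of the 123 were called doublets, too few for the caller to be relied on, and none were removed. Alternatives changed the T cell rule, depth, cycle threshold, mitochondrial limit, number of groups, pseudocount, and filter. Clustering, ratios, and thinning were tested on simulated cells with fewer groups, but the naming rule and the count of cycling cells were not. The tools were scipy 1.17.1, numpy 2.4.6, matplotlib 3.10.9, and pandas 2.3.3 (Python 3.11.15).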

Additional observations from a re-analysis of the deposited data

How the results depend on the processing

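With 1 library per genotype and cells that are not replicates, no test was run, and counting intervals do not cover variation between animals. No paired analysis was possible because each group holds 1 sample. Of 39 alternatives, 26 stayed within the interval of the first value (or 1.5 times a count, or 0.5 of a log2 median), and 13 moved. A change of sign, possible only for the log2 medians, was found in 0. With a mitochondrial share of at most 5%, there were 76 cells in place of 123, and tubule-like cells made up 28.9% and endothelium-like cells 53.9% of them in place of 48.8% and 35.8%, which turned the order of these lineages. The proximal tubule list then had 1412 CPM in place of 4032 over all the cells, its median ratio among proximal tubule-like cells was −1.94 in place of −1.12, and that of the dissociation list was 3.50 in place of 2.09. Without the tenth of cells with the most UMIs, the latter was 1.44. Cells with at least 3 core cycle genes made up 69.2% at 1000 UMIs and 89.0% at 2000 UMIs in place of 97.6%. Assigning each cell to the list with the most detected genes gave 61.0% tubule-like cells. The small sub-clusters changed with the number of groups. With 6 groups, 7 cells were mesenchyme-like in place of 2, while 5 stayed principal cell-like. With 10 groups, 3 cells were principal cell-like in place of 5, while 2 stayed mesenchyme-like. The proximal tubule level was 6376 CPM as a mean over cells, 1818 CPM without its 3 most abundant genes, and 4230 CPM without the deepest cell. The core cycle ratio moved in none of its 5 alternatives (5.38 to 5.72, against 5.67). Alternatives on 2-lineage cells, cells under 2000 UMIs, the unnamed sub-cluster, the deepest cell, the endothelium-like share, and the proximal tubule-like comparison were chosen after seeing the data.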
